A study of Mus musculus with 4 samples.

Results

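Mammary basal cells rest on a basement membrane, and 34 genes for that sheet and for its attachment to the cell were followed here. The 4 RNA-seq libraries came from mouse basal cells or from colonies grown from them. The members are a list of named genes chosen for what their products do: 7 integrin alpha chains, 5 integrin beta chains, 8 laminin chains, 5 basement membrane collagens, 4 nidogens and heparan sulfate proteoglycans, and 5 hemidesmosome genes and partners. All 34 were found among the 17630 genes listed in each library. Expression was given as FPKM, fragments counted relative to transcript length and to all mapped fragments, a value per length that allows levels of different genes to be compared within a library.

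The study asked how sympathetic nerves act on mammary development and on mammary stem cells. All 4 libraries came from wild-type (WT) mice and carried the same label for cell type, primary mammary basal cells; strain was not given in those labels. The sorted control library came from basal cells isolated by flow cytometry from mice labelled as untreated, and the sorted 6-OHDA library from cells of mice treated with 6-hydroxydopamine, a toxin that is taken up by noradrenergic nerve endings and destroys them. The colony control library came from basal cells grown as colonies in 3D Matrigel without agonist, and the colony SP library from such colonies given salbutamol, an agonist of the β2-adrenergic receptor, and phenylephrine, an agonist of the α1-adrenergic receptor. In the paper, staining of colonies grown from basal cells found both basal and luminal cells, with more luminal than basal cells in control colonies. The title of the SP library carries the number 200 without a unit. The age of the mice used for RNA-seq and the number of animals pooled in a library were not given in the sources used here. Each condition had 1 library, so no difference below has a replicate check and none was tested.

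Laminins and collagen IV each form a network, and nidogens, perlecan and agrin link or bind both networks. Integrins are pairs of an alpha and a beta chain that hold the cell to these networks, and in basal epithelia the integrin α6β4, with collagen XVII, plectin and dystonin, builds the hemidesmosome that ties the membrane to keratin filaments. In the mammary gland the basal, or myoepithelial, layer is the epithelial layer in contact with the basement membrane, and high surface CD29 (integrin β1) with CD24 is used to sort it. The product of a member, Itgb1, was therefore part of the gate by which the basal cells were isolated. Matrigel is itself a basement membrane extract rich in laminin and collagen IV, so the cells in colonies were supplied with protein of the kind several members encode.

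Markers of the basal cell type were abundant in every library. Krt14, a basal keratin, was listed at 3595, 2633, 3298 and 6920 FPKM in sorted control, sorted 6-OHDA, colony control and colony SP, an order that is kept for sets of 4 values below. Trp63, the basal transcription factor, stood at 42.8, 52.6, 46.5 and 80.9 FPKM. Myh11, smooth muscle myosin, was lower in both colony libraries, at 467, 449, 11.2 and 21.5 FPKM. Between colony control and sorted control, 6 of the 9 basal markers were lower by more than 0.3 on the log2 scale and 1 was higher. The shares of all genes were 26.6% lower and 55.7% higher. Over the 9 basal markers the summed level was 8937, 8591, 6008 and 12728 FPKM.

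Markers of other cells differed between sorted cells and colonies and between both sorted libraries. The 9 endothelial markers summed to 402, 395, 12.5 and 3.53 FPKM, with Pecam1 (CD31) at 107, 93.0, 1.39 and 1.56 FPKM and Cdh5 at 77.9, 69.4, 0.12 and 0.12 FPKM. Endothelial transcripts were thus present in the sorted libraries although CD31 was among the lineage antibodies used to remove other cells, and they were near 0 in colonies apart from Erg in the colony control, at 10.3 FPKM. The 8 fibroblast markers summed to 193, 391, 45.8 and 27.8 FPKM, and 5 of the 8 were higher by more than 0.3 on the log2 scale in the 6-OHDA library, against 15.8% of all genes compared. Dcn was the most abundant of them in the sorted libraries, at 115 and 135 FPKM, and Col3a1 stood at 18.3 and 91.7 FPKM. The 6-OHDA library also held 5 salivary secretory transcripts at a sum of 15342 FPKM, against 1.3 FPKM in the sorted control, led by Bpifa2 at 7277 FPKM. In these bulk libraries, fewer cells of a type and less RNA per cell cannot be told apart, and the part of these other transcripts in the results below was not tested.

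The members were well expressed as a group. Their summed level was 2919, 3083, 2368 and 2637 FPKM, and Itgb1 had the highest level of the 34 in each library. In sorted control cells it was followed by Col4a1 and Col4a2, the chains of the common collagen IV, at 327 and 223 FPKM, and in colony control by Col17a1 and Cd151, at 294 and 199 FPKM. No member was listed at 0. Itga9 and Nid2 were under 1 FPKM in both colony libraries, and Itga1 was under 1 FPKM in the colony control alone.

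**Figure D1:**
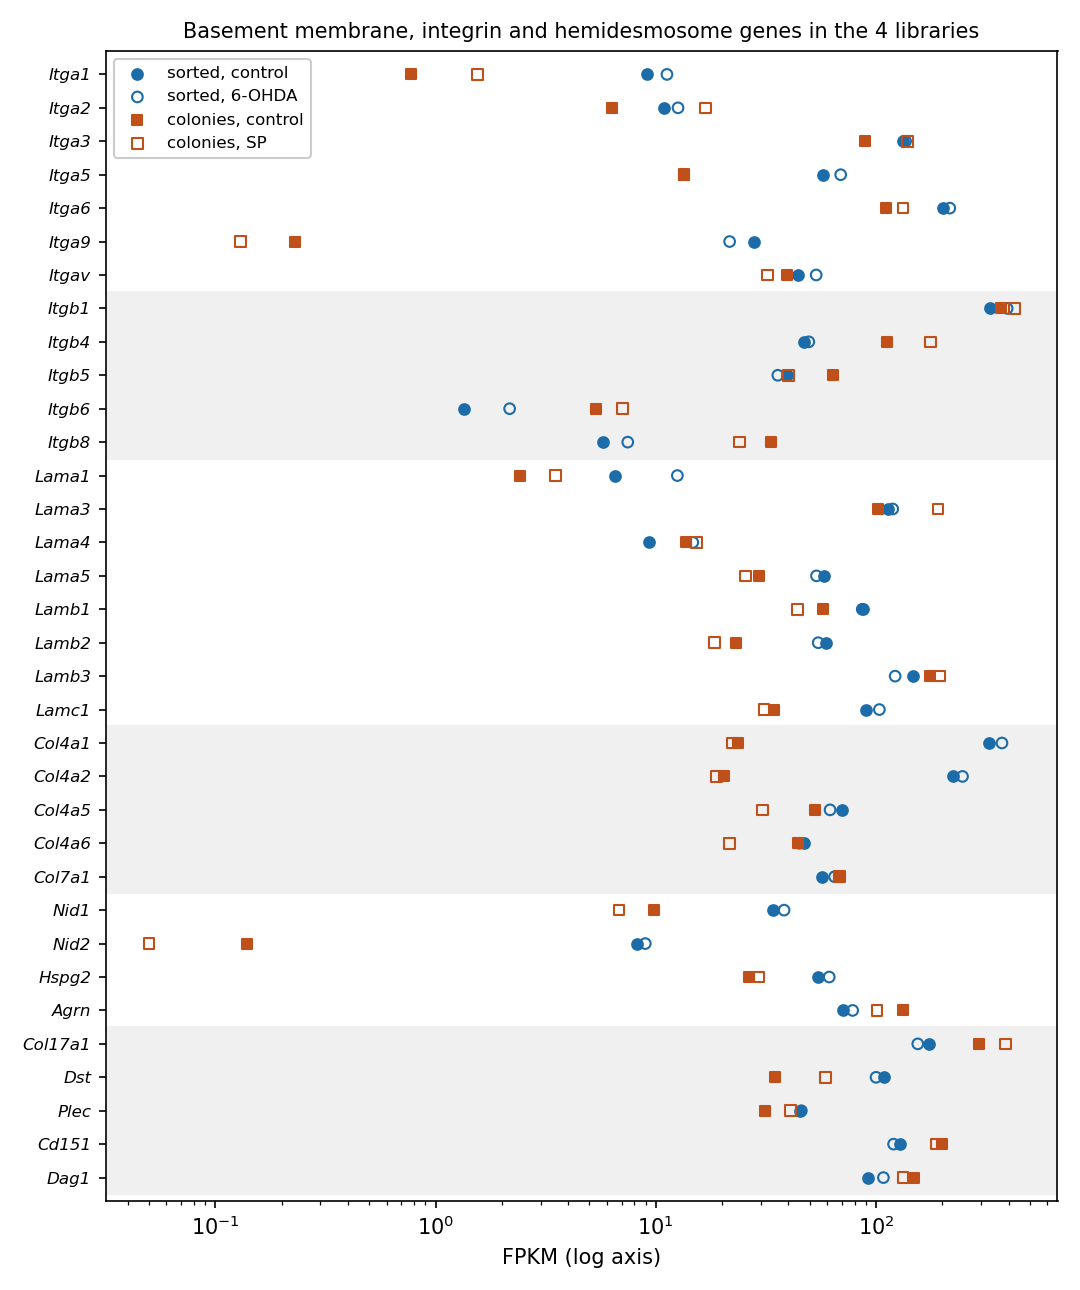
Level of each of the 34 genes in FPKM (horizontal log axis) in the 4 libraries, 1 point a library: filled circles, sorted control; open circles, sorted 6-OHDA; filled squares, colony control; open squares, colony SP; shaded bands separate the 6 groups of genes. For most genes both circles lie close together, while Col4a1 and Col4a2 stand at 327 and 223 FPKM in the sorted control and at 23.5 and 20.4 FPKM in the colony control.

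The first comparison set sorted cells of 6-OHDA-treated mice against those of control mice. Differences were taken on the scale of log2(FPKM + 1), where changes at low values come out too small, and only genes averaging at least 1 FPKM across both libraries were compared. Genes past 0.3 in size, the fold threshold of the study, were counted. All 34 members passed the filter, and 4 were higher past the threshold (11.8%), against 15.8% of the 11749 genes compared. Only Itga9 was lower past it (2.94%), against 8.35% of all genes. Thus 29 of 34 members were inside the threshold, as were most of all genes. The shares past it were below those of all genes on the deposited scale, but counts this small are not read as a difference. Their median difference was 0.13, against 0.06 for all genes. Scaling by the median ratio of all genes, which brings that 0.06 to 0.00, turned the split of all genes from 1857 higher and 981 lower to 1367 higher and 1338 lower.

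The laminins held the members with the greatest differences between the sorted libraries. Lama1, the alpha chain of the laminin of early basement membranes, was listed at 6.51 FPKM in control and 12.5 FPKM in 6-OHDA cells, a difference of 0.85. Lama4, an alpha chain best known from vessels and other mesenchymal tissue, was listed at 9.31 and 14.7 FPKM, a difference of 0.61. Both were past the central 90% of all genes compared, which ran from -0.39 to 0.50, and 173 and 367 genes had a larger difference in that direction. The fibroblast markers were higher in the same library, with a median difference of 0.97, and their part in the levels of Lama1 and Lama4 was not tested. The endothelial markers had a median difference of 0.08.

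Chains of the main epithelial laminins differed less between the sorted libraries. Lama3 and Lamb3, of the laminin-332 that hemidesmosomes bind, had differences of 0.08 and -0.27. Lama5, the alpha chain of the widespread laminin-511, had a difference of -0.11, and Lamb1, Lamb2 and Lamc1 lay between -0.12 and 0.20.

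Among the integrin chains, Itgb6 and Itgb8 passed the threshold in the 6-OHDA library at low levels. Both encode partners of αv that bind and activate latent TGF-β. Itgb6 was listed at 1.34 and 2.17 FPKM (difference 0.44) and Itgb8 at 5.76 and 7.46 FPKM (difference 0.32). With a pseudocount of 5 both were inside the threshold, at 0.18 and 0.21, and Itgb8 was also inside it with the median ratio (0.27) and after quantile normalization (0.23). Itga9, whose product pairs with β1 and binds tenascin and fibronectin of the EIIIA form, was listed at 28.0 and 21.6 FPKM, a difference of -0.36.

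Several other integrin chains lay just inside the threshold on the higher side. Itga1, a collagen receptor chain, Itga5, the fibronectin receptor chain, Itgav and Itgb1 had differences of 0.27, 0.26, 0.28 and 0.26. When the libraries were rescaled without the 5 listed salivary transcripts alone, these 4 passed it, at 0.31, 0.30, 0.32 and 0.31. The count of members higher became 8 (23.5%, against 19.9% of all genes). The share was thus no longer below that of all genes. The chains of the hemidesmosome integrin did not follow, with Itga6 at 202 and 216 FPKM and Itgb4 at 47.3 and 49.5 FPKM, differences of 0.10 and 0.07.

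The collagens, nidogens, proteoglycans and hemidesmosome genes had no member past the threshold in the 6-OHDA comparison. Col4a1 stood at 327 and 373 FPKM, Col4a2 at 223 and 247 FPKM, and the 5 collagens spanned differences from -0.18 to 0.19. Nid1, Nid2, Hspg2 (perlecan) and Agrn (agrin) spanned 0.11 to 0.16. Col17a1, Dst, Plec, Cd151 and Dag1, the last of which encodes dystroglycan, spanned -0.17 to 0.23.

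Genes outside the 34 were read from 5 further lists, whose counts stand against 15.8% higher and 8.35% lower among all genes. Enzymes of collagen folding and crosslinking had 6 of 14 compared genes higher (42.9%) and 0 lower after 6-OHDA (median difference 0.23). Without the gene that was under 1 FPKM in control and passed the filter through the 6-OHDA library, 5 of 13 were higher. Counts of this kind were added after the data were seen. Here and below, the shares of all genes were not recounted in this way and keep such genes. Loxl2, a lysyl oxidase that crosslinks collagen, was listed at 4.14 and 9.21 FPKM (difference 0.99), Pxdn, peroxidasin, which forms the sulfilimine bonds of collagen IV, at 15.9 and 25.5 FPKM (0.65), and Loxl3 had a difference of 0.47. Fibroblasts also express lysyl oxidases, and the part of the higher fibroblast markers was not tested.

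The list of other basement membrane genes had 4 of 12 higher (33.3%) and 1 lower (8.33%), with a median of 0.16, or 3 of 11 higher without a gene under 1 FPKM in control. Smoc2, a calcium-binding matrix protein, had a difference of 0.77, Col18a1, which encodes the collagen that yields endostatin, stood at 76.8 and 120 FPKM (0.63), and Ntn4, a netrin that binds laminins, had a difference of -0.36. The remaining lists held small counts. Of 6 other integrins, 2 were higher (33.3%) and 1 lower (16.7%), or 2 and 1 of 4 without those under 1 FPKM in 1 library, with Itgb3, the β3 chain, at 0.66, Itga2b at -0.43 and Itga7, a laminin receptor chain, at 0.35. Of 23 focal adhesion adaptors, 2 were higher (8.70%) and 1 lower (4.35%), or 1 and 3 with the median ratio, with Lims1 (PINCH1) at 0.40, Tns4 at -0.38 and Parvb at 0.35. Of 15 other matrix receptors and dystrophin complex genes, 2 were higher (13.3%) and 0 lower, or 4 higher without salivary transcripts, with Dmd (dystrophin) at 0.50, Sgcb at 0.29 and Sdc1 at -0.27.

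The next comparison set SP-treated colonies against control colonies, both grown from basal cells without nerves and not made up of basal cells alone. Of the 34 members 32 could be compared, since Itga9 and Nid2 were under the filter in both libraries. Of these, 10 were higher past 0.3 (31.2%), against 11.7% of the 11849 genes compared, and 8 were lower (25.0%), against 19.8%. The members thus moved both ways, and their median was 0.0029, against -0.07 for all genes. Scaling by the median ratio brought the latter to 0.00 and turned the split of all genes from 1385 higher and 2351 lower to 1754 higher and 1766 lower.

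Among the integrin chains, 3 of 6 compared alpha chains were higher and 0 lower, and 2 of 5 beta chains were higher and 2 lower, beside 11.7% higher and 19.8% lower among all genes. Itga2, a collagen receptor chain, had the largest difference of the 32, with 6.34 FPKM in control and 16.9 FPKM in SP colonies, a 2.66-fold ratio and 1.28 on the log2 scale. It was the sole member higher past 1 (0.95 with a pseudocount of 5), and 148 genes had a larger difference in that direction. Itga3, a laminin receptor chain, was listed at 89.4 and 139 FPKM (difference 0.63), and Itgb4 at 113 and 176 FPKM (0.64). Itga6, the partner of Itgb4, was inside the threshold at 111 and 133 FPKM (0.26). Itga1 passed it at low levels, 0.77 and 1.55 FPKM (0.53, or 0.18 with a pseudocount of 5), and passed the filter through the SP library alone. Without it, a count added after the data were seen, 2 of 5 alpha chains and 9 of 31 members were higher.

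On the deposited scale the αv partners did not share one direction under SP. Itgb5 was listed at 64.1 and 40.1 FPKM (difference -0.66) and Itgb8 at 33.4 and 24 FPKM (-0.46), while Itgb6 was higher at 5.37 and 7.05 FPKM (0.34, or 0.22 with a pseudocount of 5, inside the threshold). Itgav itself lay just inside the threshold, at 39.6 and 32.1 FPKM (-0.29). Itgb1, at 368 and 424 FPKM, had a difference of 0.20, and Itga5 one of 0.01.

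The laminin members differed chain by chain under SP. Lama3 was listed at 102 FPKM in control and 191 FPKM in SP colonies, a 1.88-fold ratio and a difference of 0.91. Lamb3, the beta chain of laminin-332, was high in both libraries, at 176 and 194 FPKM, with a difference of 0.14. The other beta chains were lower, Lamb1 at 57.3 and 44.0 FPKM (-0.38) and Lamb2 at 23.1 and 18.4 FPKM (-0.31). Lamb2 came inside the threshold with the median ratio, at -0.24. Lama1 was higher at 2.43 and 3.51 FPKM (0.39, or 0.20 with a pseudocount of 5), and Lama4, Lama5 and Lamc1 were within it.

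The hemidesmosome plaque and its collagen were on the higher side under SP. Dst, whose epithelial form (BP230) links the plaque to keratins, was listed at 34.6 and 59.1 FPKM, a difference of 0.76. Plec (plectin) was listed at 31.3 and 40.9 FPKM (0.38) and Col17a1, the transmembrane collagen, at 294 and 388 FPKM (0.40, or 0.29 after quantile normalization). The tetraspanin gene Cd151, at 199 and 187 FPKM, and Dag1, at 149 and 133 FPKM, had differences of -0.09 and -0.16. The basal markers were higher in the same library, 6 of 9 past the threshold, against 11.7% of all genes, with a median of 0.84. Krt5 was listed at 1888 and 4579 FPKM, and Oxtr, the oxytocin receptor gene, was the 1 marker lower past it, at 10.2 and 8.07 FPKM (-0.31). Their part in the levels of the hemidesmosome genes was not tested.

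The collagen IV chains split by gene pair. Col4a5 was listed at 53.0 FPKM in control and 30.4 FPKM in SP colonies, which is 1.74-fold lower (-0.78), and Col4a6 at 44.3 and 21.6 FPKM, 2.05-fold lower (-1.004). Col4a6 was at the edge of 1, short of it with a pseudocount of 5 (-0.89), with the median ratio (-0.93) and after quantile normalization (-0.96), and 155 genes had a larger difference in that direction. The other pair hardly differed, Col4a1 at 23.5 and 22.4 FPKM (-0.07) and Col4a2 at 20.4 and 18.9 FPKM (-0.10). Col7a1, the collagen of the anchoring fibrils below hemidesmosomes, was listed at 68.2 FPKM in both.

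Among the linkers, Nid1 was lower under SP, at 9.85 and 6.81 FPKM (-0.47), as was Agrn, at 133 and 101 FPKM (-0.39). Hspg2 was inside the threshold, with a difference of 0.15. Of 6 fibroblast markers compared, 4 were also lower in the SP library and 1 higher, against 19.8% and 11.7% of all genes. Their median was -0.89, against -0.07 for all genes, and 3 of 5 were lower without a gene under 1 FPKM in SP. Col1a2 was listed at 20.6 and 3.94 FPKM. Their part in the lower matrix genes of this comparison was not tested.

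The further lists differed among themselves in SP colonies. Their medians were -0.74 for other integrins, -0.34 for other basement membrane genes, -0.24 for other receptors, -0.12 for collagen enzymes and -0.03 for adaptors, against -0.07 for all genes. Of 9 other basement membrane genes 2 were higher and 5 lower, or 4 of 8 lower without a gene under 1 FPKM in SP. Tinagl1, a matricellular protein gene, was higher at 18.3 and 36.1 FPKM (0.94), and Smoc1 was lower at 44.8 and 12.9 FPKM (-1.72). Of 4 other integrins 0 were higher and 3 lower, namely Itga11, Itgb3 and Itga8, at -0.85, -0.85 and -0.63. Of 21 focal adhesion adaptors 3 were higher (14.3%) and 4 lower (19.0%), shares near the 11.7% and 19.8% of all genes. Tns4, a tensin without the actin-binding part, was listed at 40.8 and 86.5 FPKM (1.07), Zyx (zyxin) at 50.6 and 74.7 FPKM (0.55), and Tns2 had a difference of -0.51. Of 14 other receptors 1 was higher and 5 lower, or 4 of 13 lower without a gene under 1 FPKM in SP, with Sdc1 (syndecan-1) at 362 and 605 FPKM (0.74) and Bcam, a receptor for laminin α5, at -0.41.

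Collagen folding and crosslinking enzymes went both ways under SP, with 2 of 12 higher and 5 lower, against 11.7% and 19.8% of all genes. Those higher became 4 with the median ratio and after quantile normalization. On the deposited scale they were prolyl 4-hydroxylase subunits, P4ha2 at 5.10 and 18.0 FPKM (1.64) and P4ha1 at 12.7 and 28.9 FPKM (1.13). Loxl3 was lower at 14.3 and 5.36 FPKM (-1.27).

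**Figure D2:**
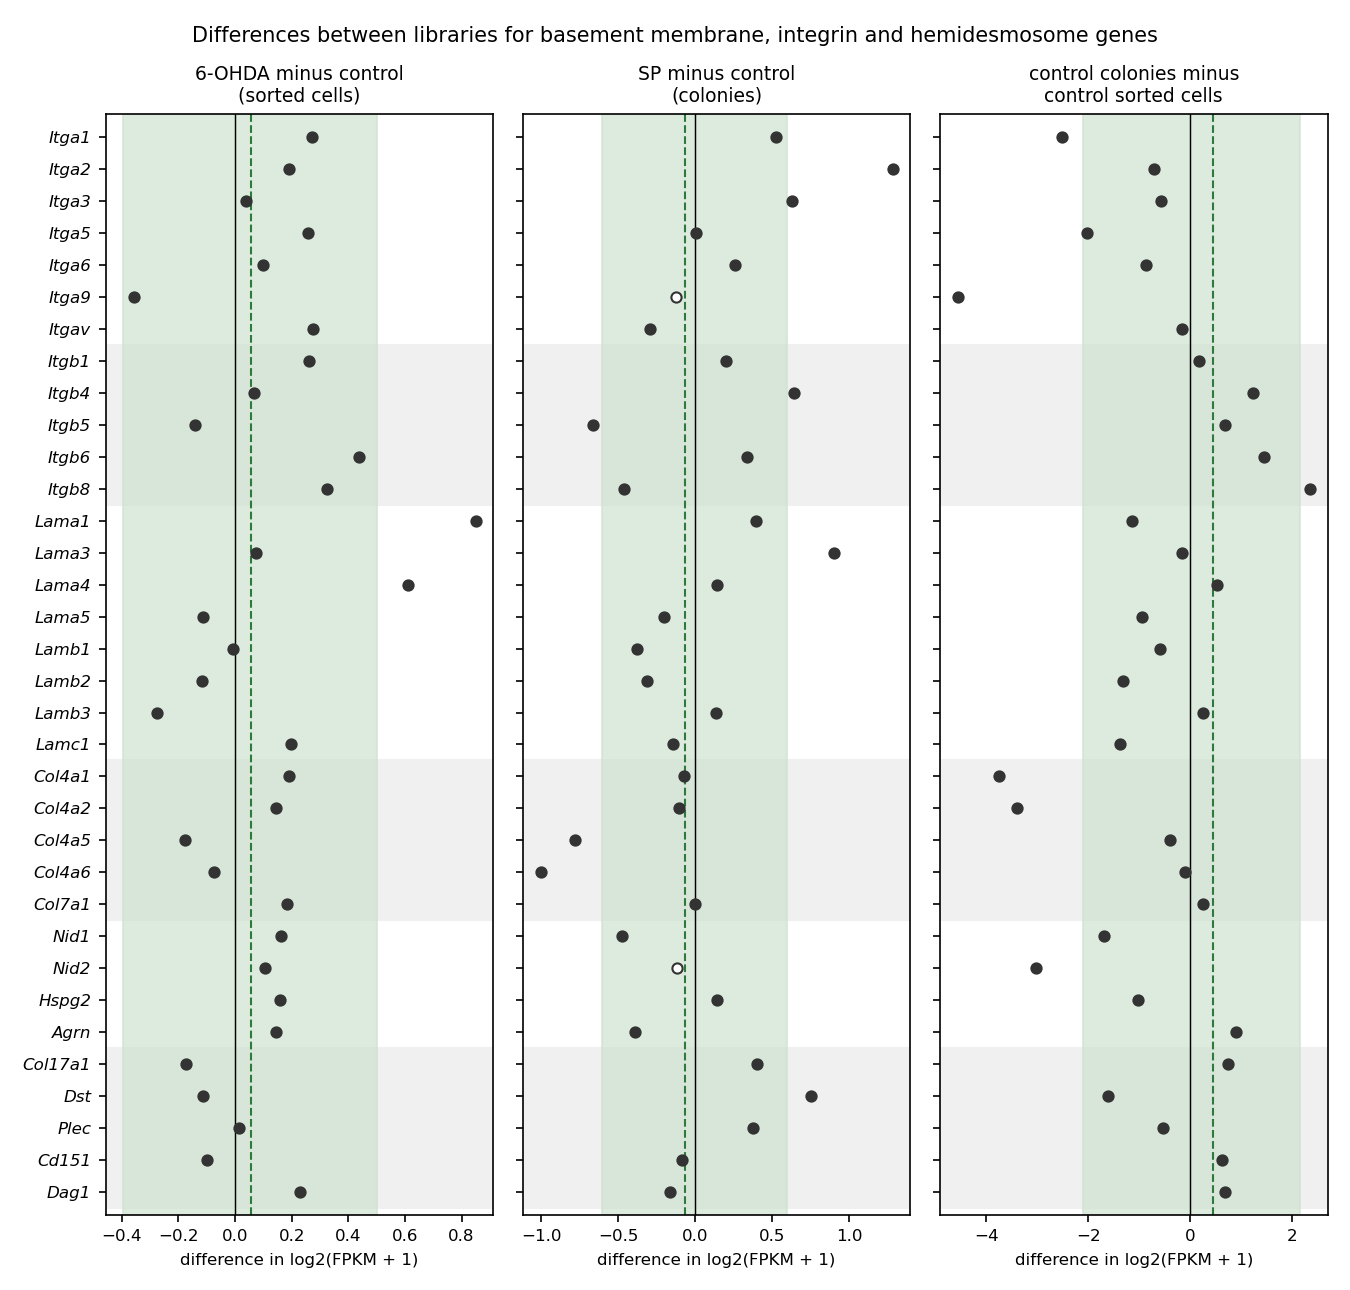
Difference in log2(FPKM + 1) for each of the 34 genes in the 3 comparisons, 1 point a gene; each panel has its own horizontal scale, the dashed line is the median of all genes compared, the green band holds their central 90%, and open points are genes under the filter on low values. Lama1 (0.85) and Lama4 (0.61) lie right of the band for 6-OHDA, Itga2 (1.28) and Col4a6 (-1.004) lie on opposite sides of it for SP, and Itga9 (-4.56) and Col4a1 (-3.74) lie far left of it for colonies.

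The last comparison set control colonies against sorted control cells. It shares a library with each of the comparisons above, so its values are given beside theirs and no overlap was taken. Of the 34 members, 9 were higher past 0.3 (26.5%), against 55.7% of the 12244 genes compared, and 19 were lower (55.9%), against 26.6%. Past 1 the counts were 3 higher (8.82%, against 30.7% of all genes) and 12 lower (35.3%, against 13.2%). The median of the members was -0.54 and that of all genes 0.45. Itga1, Itga9 and Nid2 passed the filter through the sorted library alone, where they were high, and had to differ. Without these 3, a count added after the data were seen, 9 of 31 were higher and 16 lower, with a median of -0.39. The shares of all genes were not recounted in this way. Scaling by the median ratio moved the median of all genes from 0.45 to 0.00 and their split from 6817 higher and 3252 lower to 4855 and 4826. The members then had a median of -1.04, with 4 higher and 23 lower. Of the 9 endothelial markers 7 were under 1 FPKM in the colony control and passed the filter through the sorted library alone, so they had to be lower. The other 2, Pecam1 and Erg, were lower as well (-5.49 and -0.67), and so were 4 of 6 fibroblast markers over 1 FPKM in both libraries. Of the 9 basal markers 6 were lower and 1 higher, with a median of -1.95. With the median ratio 8 were lower and 1 higher, with a median of -2.46. Of 9 luminal markers over 1 FPKM in both libraries, 7 were higher and 0 lower. The part of endothelial, fibroblast, basal and luminal transcripts in the differences below was not tested.

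Collagen IV showed the largest differences among the abundant members. Col4a1 was listed at 327 FPKM in sorted and 23.5 FPKM in colony control, 13.9-fold lower, and Col4a2 at 223 and 20.4 FPKM, 10.9-fold lower. For these, 148 and 193 genes had a larger difference in that direction. Col4a5 was listed at 70.0 and 53.0 FPKM (-0.39), Col4a6 at 47.3 and 44.3 FPKM (-0.09) and Col7a1 at 57.0 and 68.2 FPKM (0.26, which the median ratio turned to -0.24). Col4a1 and Col4a2 are also strongly expressed by endothelial cells.

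Other structural parts of the membrane were lower as well. Nid1 was listed at 34.1 and 9.85 FPKM (-1.69), Nid2 at 8.25 and 0.14 FPKM (-3.02) and Hspg2 at 54.8 and 26.6 FPKM (-1.02). Nidogens bridge laminin γ1 and collagen IV, and Lamc1, the γ1 chain, was also lower, at 90.2 and 34.4 FPKM (-1.37). Lamb2 stood at 59.4 and 23.1 FPKM (-1.32), Lama1 at 6.51 and 2.43 FPKM (-1.13), Lama5 at 58.1 and 29.5 FPKM (-0.95) and Lamb1 at 87.1 and 57.3 FPKM (-0.60). The chains Lama3 and Lamb3 differed less, Lama3 at 113 and 102 FPKM (-0.15) and Lamb3 at 148 and 176 FPKM (0.25, or -0.25 with the median ratio). Agrn was higher, at 70.7 and 133 FPKM (0.90), and Lama4 was higher at 9.31 and 13.8 FPKM (0.52, or 0.05 with the median ratio).

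Among the integrin chains in culture, alpha chains were mostly lower. Without Itga1 and Itga9, over 1 FPKM in the sorted library alone, 4 of 5 alpha chains were lower past the threshold and 0 higher. Of all genes 26.6% were lower and 55.7% higher, shares that keep genes over 1 FPKM in 1 library alone. Itga5 was listed at 57.6 and 13.4 FPKM (-2.03). Itga9 stood at 28.0 and 0.23 FPKM (-4.56) and Itga1 at 9.13 and 0.77 FPKM (-2.52). The laminin receptor chains were lower by less, Itga6 at 202 and 111 FPKM (-0.86), Itga3 at 133 and 89.4 FPKM (-0.56) and Itga2, for collagen, at 11.0 and 6.34 FPKM (-0.70). Of the beta chains 4 of 5 were higher, against 55.7% of all genes. With the median ratio 3 were higher and 1 lower, against 39.7% and 39.4% of all genes. Itgb8 was listed at 5.76 and 33.4 FPKM, a 5.81-fold ratio, Itgb6 at 1.34 and 5.37 FPKM, 4.01-fold, and Itgb4 at 47.3 and 113 FPKM, 2.38-fold. Itgb5 was listed at 39.6 and 64.1 FPKM (0.68, or 0.18 with the median ratio). Itgb1, the partner of most of these alpha chains, stood at 328 and 368 FPKM, with a difference of 0.17 that the median ratio turned to -0.34.

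Hemidesmosome genes also differed among themselves in culture. Col17a1 was listed at 175 and 294 FPKM (0.75), Cd151 at 129 and 199 FPKM (0.62) and Dag1 at 92.0 and 149 FPKM (0.69). These 3 came inside the threshold with the median ratio, at 0.24, 0.12 and 0.18. The plaque proteins were lower, Dst at 108 and 34.6 FPKM (-1.62) and Plec at 45.3 and 31.3 FPKM (-0.52). Dst also has forms used in muscle and nerve, and gene-level values do not separate its forms.

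The further lists were mixed in this comparison, where 55.7% of all genes were higher and 26.6% lower, with a median of 0.45. Of 12 other basement membrane genes 4 were higher and 7 lower. Of these genes 3 were under 1 FPKM in 1 of the libraries and had to differ. Without them 3 of 9 were higher and 5 lower, with a median of -0.54, while the shares of all genes keep such genes. Smoc1, at 0.33 and 44.8 FPKM (5.11), was one of those left out, while Tinagl1, at 189 and 18.3 FPKM (-3.30), and Col15a1, at 22.7 and 1.83 FPKM (-3.06), were kept.

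Of the adaptors over 1 FPKM in both libraries 5 of 21 were higher and 10 lower, with a median of -0.30. Tns1 had a difference of -2.84, Ptk2b (PYK2) one of 2.13, and Pxn (paxillin) was listed at 116 and 36.7 FPKM (-1.64). Counted the same way, 1 of 3 other integrins was higher and 1 lower, with Itgb3 at 1.88 and Itga8 at 0.02. Itga2b (-3.24) was left out of that count, at 15.0 and 0.69 FPKM. Of 14 other receptors 6 were higher and 5 lower, with Sgcb at 2.12, Sdc4 (syndecan-4) at 490 and 158 FPKM (-1.62) and Cd81 at 1.45. Of 12 collagen enzymes 7 were higher and 3 lower, with Plod2 at 1.80, Lox at 1.36 and P4ha2 at -1.28. With the median ratio, and with genes under 1 FPKM kept, 4 of 13 enzymes were higher and 5 lower (median 0.04), as were 3 and 16 of 23 adaptors (-0.84), 3 and 8 of 12 other basement membrane genes (-1.04), 5 and 9 of 15 other receptors (-0.71) and 2 and 3 of 5 other integrins (-0.45). All genes were then 39.7% higher and 39.4% lower.

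Ratios of genes within a library do not depend on how libraries are scaled to each other. The FPKM of Itgb4 was 0.234 and 0.229 times that of Itga6 in sorted control and sorted 6-OHDA, and 1.02 and 1.33 times in colony control and colony SP. As α6 can pair with β1 or β4, the transcript of its hemidesmosome partner was below its own in sorted cells and at or above it in colonies. Itgb4 made up 11.2%, 10.1%, 19.3% and 26.2% of the summed FPKM of the 5 beta chains.

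Among laminin chains, Lama3 and Lamb3 had larger shares in colonies than in sorted cells. Lama3 made up 60.2%, 58.8%, 68.9% and 81.2% of the FPKM of the 5 laminin alpha chains, while Lama5 made up 31.0%, 26.5%, 20.0% and 10.8%. Lamb3 made up 50.2%, 46.4%, 68.7% and 75.7% of the FPKM of the 3 beta chains. Both therefore had their highest share in the SP library and their lowest in the 6-OHDA library.

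Collagen IV also differed in make-up. Col4a1 with Col4a2 accounted for 82.4%, 85.3%, 30.9% and 44.1% of the FPKM of the 6 collagen IV genes, and Col4a5 with Col4a6 for 17.6%, 14.7%, 68.5% and 55.6%. Within each pair the ratio was steadier. Col4a1 was 1.46, 1.51, 1.15 and 1.18 times Col4a2, and Col4a5 was 1.48, 1.38, 1.20 and 1.41 times Col4a6.

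Both pairs are neighbours in the genome. Col4a1 (chr8:11198423-11312889) and Col4a2 (chr8:11312805-11449287) overlap by 85 bases in the RefSeq annotation of GRCm38.p6, the assembly that mm10 stands for, and fragments from that stretch cannot be told apart where strand was not used. Col4a6 (chrX:141165403-141474095) and Col4a5 (chrX:141475370-141689236) start 1274 bases apart and point away from each other. The bases before their starts are shown because these genes were lower together in SP colonies, and those before Col17a1 (chr19:47646341-47692042) because it had the highest level of the hemidesmosome genes in each library. Each is given 5′ to 3′ on the strand of its gene, from the RefSeq promoter table of GRCm38.p6, shortened so that no annotated exon is included. Capitals mark the letters CCAAT, bound by the factor NF-Y, or TATAAA, the form of the TATA box, searched on both strands.
Col4a5, chrX:141475169-141475369, plus strand, 201 bases: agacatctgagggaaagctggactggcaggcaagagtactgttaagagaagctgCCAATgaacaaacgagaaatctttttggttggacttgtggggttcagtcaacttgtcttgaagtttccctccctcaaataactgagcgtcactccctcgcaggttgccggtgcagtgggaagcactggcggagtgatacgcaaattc
Col4a6, chrX:141474096-141474326, minus strand, 231 bases: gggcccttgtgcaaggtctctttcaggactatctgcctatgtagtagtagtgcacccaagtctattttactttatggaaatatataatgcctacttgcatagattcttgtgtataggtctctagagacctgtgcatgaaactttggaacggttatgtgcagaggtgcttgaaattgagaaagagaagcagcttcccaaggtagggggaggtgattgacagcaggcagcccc
Col17a1, chr19:47692095-47692292, minus strand, 198 bases: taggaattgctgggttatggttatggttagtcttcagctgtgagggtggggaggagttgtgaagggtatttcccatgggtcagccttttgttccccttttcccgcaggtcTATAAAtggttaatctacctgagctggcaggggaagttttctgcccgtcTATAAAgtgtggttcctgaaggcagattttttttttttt
The Col4a5 stretch holds 1 CCAAT, the Col4a6 stretch none of the 5 motifs searched, and the Col17a1 stretch 2 TATAAA. These are the shortened stretches: the full windows of Col4a5 and Col4a6 also hold a GC box, and that of Col17a1 a CCAAT.

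Of the 34 members 26 matched the promoter table, with 33 windows. Those without a window were Itga6, Itgb4, Lama1, Lama3, Lama4, Lamc1, Nid2 and Plec. The search length was set at 250 bases a window, although the listed coordinates run longer and some extend past the annotated gene start. The GC box, GGGCGG, was in 19 of the 33 (57.6%), against 32.7% of the 32851 windows of all genes, and CCAAT in 12 (36.4%), against 33.8%. TATAAA was in 1 window (3.03%), that of Col17a1, against 12.4%. The letters TGANTCA (AP-1) and CACGTG (E-box) were in 0 of the 33, against 6.75% and 6.02%. Counts this small are not read as a difference. Windows of the same gene can overlap, and a match is a match of letters only.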

How the data were processed

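mRNA libraries (DNBSEQ) were made from sorted basal cells or basal colonies, 1 library for each of 4 conditions. The authors deposited FPKM values per gene, rounded to 2 decimals; the submitters' processing notes name Bowtie2, RSEM 1.3.1, DESeq2 1.4.5 and mm10, and the annotation was not given in the sources used here. FPKM divides by all fragments, so very abundant transcripts in 1 library lower its other values. Gene IDs were matched to RefSeq names (17512 of 17630; 118 stayed unnamed). Itgad, in the list of other integrins, was not analysed here.

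For each pair of libraries, genes averaging 1 FPKM or more were compared by their difference in log2(FPKM + 1) and counted past 0.3 in size, with Python 3.11.15, pandas 2.3.3 and numpy 2.4.6. The steps were run on simulated data with changes larger than 0.3 planted in genes averaging at least 5 FPKM. Smaller changes, and changes at lower levels, were not covered by that run. Figures used matplotlib 3.10.9. FPKM is no count and each condition had 1 library, so no test was run. Depth was not stated; steps between low values put it roughly at 15.8 to 18.8 fragments for 1 FPKM on 1 kilobase, from a poor fit (0.34 to 0.52, where 1 is perfect).

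The members and lists were chosen with earlier results of these data known. All 34 members are named, and of each further list the 3 compared genes with the largest difference among those with a mean FPKM of at least 5; of the marker lists (basal, luminal, fibroblast, endothelial, pericyte, leukocyte, Schwann cell, adipocyte, salivary secretory), the most abundant gene and those near 0. Of the genes this rule picks, 2 are not reported here. Some other markers were named after their values were seen. Alternatives were pseudocounts of 0.1 and 5, no filter or a mean of at least 5, and a threshold of 1. Others were rescaling to the same sum, the median ratio, quantile normalization and rescaling without the 5 listed salivary transcripts.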

Additional observations from a re-analysis of the deposited data

How the results depend on the processing

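Counts of members and of all genes that changed by more than 1.5 times, and medians of the members that moved by over 0.1, are given here; the cause was not tested. In the 6-OHDA comparison, a pseudocount of 5 left 2 members higher, and 804 of all genes higher and 539 lower. With a mean FPKM of at least 5, 1066 genes were higher and 639 lower, since fewer genes were compared. Members lower became 2 after rescaling to the same sum and 2 with the median ratio, where Lamb3 (-0.30 and -0.34) joined Itga9. That share was 5.88%, against 10.7% and 11.4% of all genes under these settings. Members higher became 8 after rescaling without salivary transcripts (23.5%, against 19.9% of all genes). Past a threshold of 1, 0 members were higher and 0 lower, and 123 genes were higher and 106 lower.

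In the SP comparison, a pseudocount of 5 left 1276 genes lower, and Itga1, Itgb6, Lama1 and Lamb2 came inside the threshold. Past 1, 1 member was higher and 1 lower, with 237 genes higher and 158 lower. Itgav passed -0.3 at a pseudocount of 0.1 and after rescaling to the same sum (-0.30 and -0.32), and Itga6 passed 0.3 with the median ratio (0.33).

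For colonies against sorted cells, the median of the members was -0.73 after rescaling to the same sum, -1.04 with the median ratio and -0.65 after quantile normalization. Members higher became 4 with the median ratio (11.8%, against 39.7% of all genes). Past 1, 3 members were higher and 12 lower, and 3761 genes were higher and 1619 lower. Itgav and Lama3 passed the threshold on the lower side after rescaling to the same sum (both -0.33) and with the median ratio (-0.64 and -0.65), as did Col4a6 with the latter (-0.59). Itgb1, at 0.17 as deposited, turned to -0.34 with the median ratio and so passed the threshold on the other side. Without the 3 members under 1 FPKM in the colony control, chosen after the data were seen, the median was -0.39.

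Counts of the 5 further lists are small and moved easily. Apart from the threshold of 1, at least 1 alternative moved 8 of their 10 counts by more than 1.5 times in the 6-OHDA comparison, 4 of 10 in the SP comparison and 6 of 10 for colonies against sorted cells. In the 6-OHDA comparison, the 2 other receptors higher became 5 with a pseudocount of 0.1, 0 with a pseudocount of 5 and 4 without salivary transcripts. The 2 adaptors higher became 4 without salivary transcripts and 1 with the median ratio, where the 1 lower became 3 and the 2 other integrins higher became 1.

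No member past 0.3 on the deposited scale changed sign under the alternatives tried. No paired analysis was possible because each condition has 1 library. Depth is known only roughly, so values under 1 FPKM, as for Itga9 and Nid2 in colonies, rest on few fragments.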

Other observations

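The 10 luminal markers had a larger sum in colonies than in sorted cells. They summed to 1404, 1275, 1984 and 1890 FPKM in sorted control, sorted 6-OHDA, colony control and colony SP, and 8 of 10 were higher past 0.3 in colony control than in sorted control, with a median of 0.67, against 55.7% and 0.45 for all genes. With the median ratio 5 were higher and 1 lower, against 39.7% and 39.4% of all genes, with a median of 0.16. Krt8, the most abundant, was listed at 560, 545, 698 and 683 FPKM, and Elf5, a factor of alveolar luminal cells, at 0.63, 1.02, 22.5 and 18.1 FPKM. Elf5 passed the filter through the colony library alone, and without it 7 of 9 were higher, with a median of 0.42. Between SP and control colonies 0 of 10 were higher and 4 lower, against 11.7% and 19.8% of all genes, and with the median ratio 2 were lower, against 14.9%. In the 6-OHDA comparison 0 of 9 were higher and 3 lower (33.3%), against 15.8% and 8.35% of all genes, with a median of -0.15. The part of this in the 6-OHDA results above was not tested.

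The other marker lists were low. The 6 pericyte markers summed to 40.4, 48.7, 24.7 and 18.7 FPKM, led by Rgs5 in sorted cells and by Notch3 in colonies. The 7 leukocyte markers summed to 12.5, 11.3, 3.37 and 4.66 FPKM, led by Cd68, with Ptprc (CD45) at 0.77 and 0.47 FPKM in sorted cells and listed at 0 in both colony libraries. The 5 Schwann cell markers summed to 62.0, 77.9, 11.4 and 8.69 FPKM, of which Sox10, which mammary epithelium also expresses, made up most. The 4 adipocyte markers summed to 1.16, 0.86, 3.56 and 0.08 FPKM.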
